A study of Mus musculus with 10 samples.

Results

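The genes described here are 10 neuropeptide genes of the mouse forebrain: Sst, Npy, Vip, Cck, Tac1, Penk, Pdyn, Crh, Nts and Gal. They were chosen by name, as peptides of interneurons, of striatal projection neurons and of the opioid family, and each matched 1 row of the 54532 genes in the deposited table. All 10 passed the filter on low counts. RNA was sequenced from the brains of 10 Slc20a2 homozygous knockout (Slc20a2-HO) mice, in which the phosphate transporter SLC20A2 is lost and the brain calcifies. Of these, 6 mice received FTY720, a modulator of sphingosine-1-phosphate receptors that keeps lymphocytes in lymph nodes, at 0.5 mg/kg in dimethyl sulfoxide by intraperitoneal injection 3 times a week for 12 weeks from the age of 1.5 months. The other 4 mice, called Placebo, received dimethyl sulfoxide alone, so both groups carried the knockout and no wild-type library was analysed here. Animals were perfused, and a part of each brain was taken for RNA.

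Library titles join a letter for the treatment (F or P), a digit 1 or 3, and a mouse number, and the labels do not say what the digit stands for. The digit 1 is in 4 titles (F1-622, F1-624, F1-918 and P1-623), and the digit 3 in 6 (F3-609, F3-612, F3-908, P3-612, P3-904 and P3-907). Mouse number 612 is in 1 FTY720 and 1 placebo title. All 6 libraries with a mouse number that begins with 6 had more Y-linked than Xist counts, and all 4 that begin with 9 had the reverse. Between 14772745 and 18303981 fragments per library were counted on genes, with a median of 16653895. Slc20a2 itself had 89 to 294 counts per library, or 6.31 to 9.43 CPM in the digit 1 libraries and 11.5 to 17.0 CPM in the others. CPM, the count of a gene scaled to a common library total by TMM, puts libraries of different depth on 1 scale. Without a wild type, these values do not check the knockout.

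Neuropeptides are made as precursor proteins, cut by prohormone convertases inside dense-core vesicles, released on sustained firing and sensed by G protein-coupled receptors. In cortex and hippocampus Sst, Vip, Npy and Cck mark classes of GABAergic interneurons, and Cck is also made by many glutamatergic neurons. In the striatum Penk marks the projection neurons of the indirect pathway, and Tac1 and Pdyn those of the direct pathway. Crh, Nts and Gal are made by smaller populations in the hypothalamus, amygdala and brainstem, and Crh also by cortical interneurons.

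The promoters of several of these genes are known for cAMP-responsive control, and upstream sequence is shown as background. A part of these sequences in the differences between libraries was not tested. In the RefSeq table for GRCm38.p6, 8 of the 10 genes had an upstream window, and Penk and Crh had none. In the 250 bases before each RefSeq start, which can differ from the gene start in the deposited table, both strands were searched for the full cAMP response element TGACGTCA, which 1.55% of all 32851 windows held, and for its first letters TGACGT, which lie inside it and were held by 6.47%. The variant TGCGTCA was held by 1.75%, the AP-1 motif TGAGTCA by 4.46% and the TATA motif TATAAA by 12.4%. The stretches below run 5′ to 3′ on the strand of the gene and have the matching letters in capitals: TGACGTCA in Sst, TGACGT in Vip, and TGCGTCA in Cck and Tac1.
Sst (chr16:23890873-23890902, minus strand): cctccttggcTGACGTCAgagagagagttt
Vip (chr10:5639118-5639217, plus strand): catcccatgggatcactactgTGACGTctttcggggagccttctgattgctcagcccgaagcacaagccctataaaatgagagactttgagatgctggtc
Cck (chr9:121495695-121495794, minus strand): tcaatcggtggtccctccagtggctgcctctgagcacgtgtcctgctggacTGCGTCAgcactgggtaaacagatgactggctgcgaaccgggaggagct
Tac1 (chr6:7554851-7554880, plus strand): ttccctaaaatTGCGTCAtttcgaacacaa
The match began 48 bases before the start in Sst, 79 in Vip, 49 in Cck and 199 in Tac1. Vip also held TATAAA 30, 147 and 157 bases before its start, and Nts held TGAGTCA 207 bases before its own. The windows of Npy, Pdyn and Gal held none of these letters. These are matches of letters, and no binding was measured.

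Most of the 10 peptide genes were lower in the libraries with the digit 3 than in those with the digit 1. With the treatment as a covariate, edgeR's quasi-likelihood test called 8 of them at an adjusted p under 0.05, all lower: Sst, Npy, Vip, Cck, Penk, Pdyn, Nts and Gal. Tac1 and Crh, at log2 fold changes of -0.37 and -0.60, did not pass. Among all 17665 genes tested, 28.4% were called in either direction and 14.4% were called lower. The median log2 fold change was -0.66 for the 10 genes and -0.01 for all genes tested.

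Libraries of the 2 digits also differed in the brain regions they held. Gabra6, a receptor subunit of cerebellar granule cells, had 1 to 4 counts in the digit 1 libraries and 2189 to 2882 in the digit 3 libraries, and Cbln3, another granule cell gene, had 7 to 19 against 4521 to 5599. Hoxb5, a gene of hindbrain and spinal cord, had 0 counts in all 4 digit 1 libraries, where up to 3 counts per library remain possible, and 43 to 99 with the digit 3. Summed over 20 cerebellar granule and Purkinje cell genes, the digit 1 libraries held 1003 to 1121 CPM against 2801 to 3466 CPM in the others, and the sum of 11 hindbrain genes was 0.590 to 0.852 against 56.8 to 77.5 CPM. Hoxb3, Hoxb5, Hoxa2, Hoxa3, Hoxa5, Hoxc4 and Hoxd3 were at 0 in every digit 1 library. CPM is a share of each library, and in tissue RNA fewer cells of a type and less RNA per cell cannot be told apart. The part of region content in the peptide differences was not tested.

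**Figure D1:**
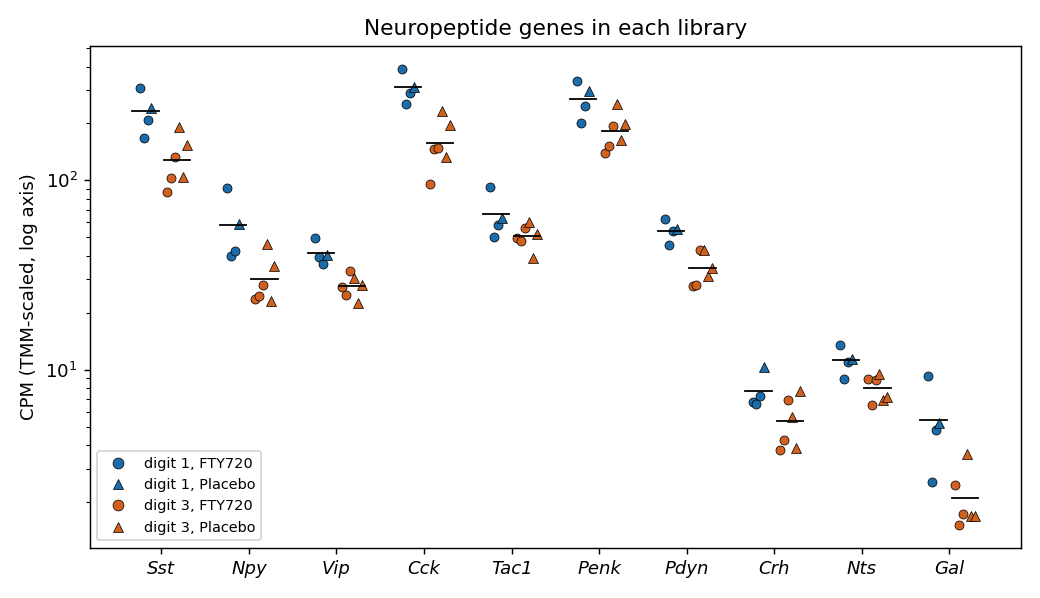
Level of each peptide gene in each library, in TMM-scaled CPM on a log axis, with FTY720 as circles, placebo as triangles and the arithmetic mean of each digit as a bar. Every digit 1 library lies above every digit 3 library for Vip, Cck and Pdyn, and Gal has the widest scatter, from 1.51 to 9.22 CPM.

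All 4 peptide genes that mark interneurons fell from the digit 1 to the digit 3 libraries. Sst (ENSMUSG00000004366, GRCm38 chr16:23889573-23890958), the precursor of somatostatin, an inhibitory peptide of dendrite-targeting interneurons, was at 309 CPM in F1-622, 167 in F1-624, 209.9 in F1-918 and 243 in P1-623. With the digit 3 its lowest, median and highest values were 86.8, 119 and 191 CPM. Among the digit 3 libraries P3-612 alone lay above the lowest digit 1 library, F1-624. The mean was 129 ± 38.9 CPM (SD, n = 6) with the digit 3 and 232 ± 59.96 CPM (SD, n = 4) with the digit 1, and edgeR gave a log2 fold change of -0.96 (SE 0.21, adjusted p = 0.00552).

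Npy (ENSMUSG00000029819, GRCm38 chr6:49822710-49829507), the precursor of neuropeptide Y, is made in the same brain regions, partly by the cells that make somatostatin. It was at 91.1, 39.7, 42.6 and 58.7 CPM in F1-622, F1-624, F1-918 and P1-623, and at 23.0 to 46.2 CPM with the digit 3, with a median of 26.2. P3-612 was again the only digit 3 library within the digit 1 range, and F1-622 stood far above the other digit 1 libraries. EdgeR gave a log2 fold change of -1.04 (SE 0.25, adjusted p = 0.00895).

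Vip (ENSMUSG00000019772, GRCm38 chr10:5639218-5647617) encodes vasoactive intestinal peptide, made by interneurons that inhibit other interneurons and by the suprachiasmatic nucleus. Its digit 1 values were 49.8 CPM in F1-622, 39.5 in F1-624, 36.3 in F1-918 and 40.4 in P1-623, against 22.6 to 33.3 CPM and a median of 27.7 with the digit 3. The digits did not overlap. It fell by 0.56 on the log2 scale (SE 0.13, adjusted p = 0.00762), and its spread within a digit was small, with a coefficient of variation of 14.1% and 13.9%.

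Cck (ENSMUSG00000032532, GRCm38 chr9:121489824-121495694), the precursor of cholecystokinin, had the smallest p of the 10 genes. It was at 389 CPM in F1-622, 252 in F1-624, 288 in F1-918 and 312 in P1-623, and with the digit 3 at 96.3 to 232 CPM with a median of 147. No digit 3 library reached the lowest digit 1 library. It fell by 1.09 on the log2 scale (SE 0.19, adjusted p = 0.00188).

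Of the striatal peptide genes, the opioid precursors Penk and Pdyn fell and Tac1 did not pass the test. Penk (ENSMUSG00000045573, GRCm38 chr4:4133531-4138819), the precursor of the enkephalins, was at 337, 201, 247 and 298 CPM in F1-622, F1-624, F1-918 and P1-623, and at 139.6 to 253 CPM with a median of 179 with the digit 3. P3-612, at the top of the digit 3 values, was the only one to pass F1-624. Its log2 fold change was -0.64 (SE 0.16, adjusted p = 0.0119). Penk was also the only one of the 10 genes to overlap another gene, A830012C17Rik on the opposite strand, which had at most 2 counts in a library.

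Pdyn (ENSMUSG00000027400, GRCm38 chr2:129686565-129699844), the precursor of the dynorphins, which act on kappa opioid receptors, was at 62.2, 45.7, 53.7 and 55.7 CPM in the same order of digit 1 libraries. With the digit 3 it was at 27.6 to 43.0 CPM with a median of 33.0, below every digit 1 library. It fell by 0.69 on the log2 scale (SE 0.15, adjusted p = 0.00592).

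Tac1 (ENSMUSG00000061762, GRCm38 chr6:7554879-7565834), the precursor of substance P and neurokinin A, did not pass the adjusted threshold. It was at 92.5 CPM in F1-622, 50.5 in F1-624, 57.98 in F1-918 and 63.7 in P1-623, against 39.0 to 60.2 CPM and a median of 50.9 with the digit 3. Only F1-622 and P1-623 lay above all digit 3 libraries. The log2 fold change was -0.37 (SE 0.17, adjusted p = 0.111), with a 95% interval from its standard error, not adjusted, of -0.70 to -0.05.

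Of the remaining genes, Gal had the largest fold change and Crh did not pass. Gal (ENSMUSG00000024907, GRCm38 chr19:3409919-3414472) encodes galanin, a peptide of hypothalamic neurons and of the noradrenergic locus coeruleus. Its values rest on few reads: 130 counts in F1-622, 43 in F1-624, 80 in F1-918 and 80 in P1-623, or 9.22, 2.53, 4.80 and 5.24 CPM, and 26 to 60 counts with the digit 3, or 1.51 to 3.56 CPM with a median of 1.71. Only P3-612 among the digit 3 libraries was above F1-624. Galanin mRNA had a log2 fold change of -1.41 (SE 0.35, adjusted p = 0.0111).

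Nts (ENSMUSG00000019890, GRCm38 chr10:102481756-102490486), the precursor of neurotensin, was at 13.5, 8.96, 10.97 and 11.4 CPM in F1-622, F1-624, F1-918 and P1-623, and at 6.51 to 9.45 CPM with a median of 7.998 with the digit 3. P3-612 alone lay within the digit 1 range. The log2 fold change was -0.49 (SE 0.16, adjusted p = 0.0365), and this call was lost without F1-622 (adjusted p = 0.0896), F1-918 (0.0666), F3-609 (0.0579), F3-612 (0.101), P1-623 (0.140), P3-904 (0.0501) or P3-907 (0.0649).

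Crh (ENSMUSG00000049796, GRCm38 chr3:19693401-19695396), the precursor of corticotropin-releasing hormone, was at 6.73, 6.54, 7.25 and 10.3 CPM in the digit 1 libraries in the same order. With the digit 3 it was at 3.76 to 7.69 CPM with a median of 4.94. F3-908 and P3-907 lay within the digit 1 range. The log2 fold change was -0.60 (SE 0.21, adjusted p = 0.0530), and DESeq2 put it past the threshold (adjusted p = 0.0346). Over 22 alternative settings in edgeR, DESeq2 or limma, the adjusted p of Crh ran from 0.0097 to 0.257. That of Tac1 ran from 0.0106 to 0.319.

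Vip, Cck and Pdyn were the 3 genes of the 10 whose digit 3 values all lay below all digit 1 values, as did 6.41% of all genes tested. The two-sided exact permutation test over the 210 assignments of 6 and 4 libraries gave p = 0.00476 for Vip, the smallest it allows, and 0.00952 for Cck and Pdyn. It gave 0.0143 for Gal, 0.0190 for Sst and Npy, 0.0238 for Nts, 0.0333 for Penk and 0.0714 for Tac1 and Crh. Within mouse numbers beginning with 6 (3 libraries against 3) all 10 genes were lower with the digit 3, by a median of -0.76 in mean log2 CPM. Within those beginning with 9 (3 against 1) all 10 were lower, by a median of -0.55.

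**Figure D2:**
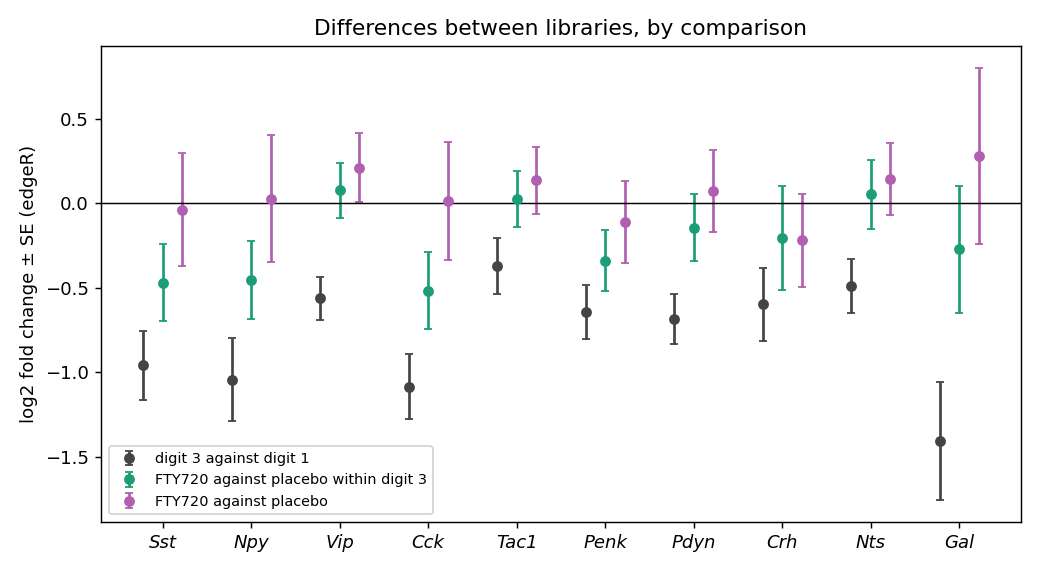
Log2 fold change of each peptide gene in edgeR fits, with bars of 1 standard error: digit 3 against digit 1 (grey), FTY720 against placebo among digit 3 libraries (green) and FTY720 against placebo over all 10 libraries (purple). Grey points are all below 0, from -1.41 for Gal to -0.37 for Tac1, and the purple points lie between -0.22 and 0.28.

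Per unit of gene length, Sst had the highest mean of the 10 transcripts with either digit. Deposited FPKM values averaged 319 ± 82.9 for Sst, 235 ± 44.5 for Cck, 164 ± 36.0 for Penk and 101 ± 41.5 for Npy (SD, n = 4 digit 1 libraries). Tac1 followed at 19.2 ± 5.401, Pdyn at 18.6 ± 2.35, Vip at 12.1 ± 1.73, Nts at 8.89 ± 1.51, Gal at 7.57 ± 3.88 and Crh at 5.77 ± 1.28. Sst, Cck, Penk and Npy kept this order in each of the 4 libraries, the ranges of Npy and Tac1 did not overlap, and Tac1 was above Pdyn in only 1 library and Gal above Crh in only 2. With the digit 3 Sst averaged 176 ± 52.6, Cck 120.2 ± 36.0, Penk 111 ± 24.4, Npy 52.6 ± 15.7 and Tac1 14.8 ± 2.08 FPKM (SD, n = 6). Pdyn (11.8 ± 2.31), Vip (8.07 ± 1.09), Nts (6.31 ± 0.981), Crh (4.005 ± 1.22) and Gal (2.92 ± 1.09) followed, so the means of Gal and Crh changed places, with Crh above Gal in 4 of 6 libraries. Cck was above Penk in only 4 of these 6, with Penk higher in F3-609 and F3-908. The range from the highest to the lowest mean was 55.3-fold with the digit 1 and 60.4-fold with the digit 3.

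Among receptors of these peptides, the machinery that makes them and other neuropeptide genes, more were called lower than higher with the digit 3, beside 14.4% of all genes called lower and 28.4% called in either direction. Of 23 peptide receptor genes tested, 8 were called lower and 2 higher, with a median log2 fold change of -0.40. The lower ones included Ntsr1, a neurotensin receptor (-0.83, adjusted p = 0.000426), Cckbr, the main cholecystokinin receptor of the brain (-0.58, adjusted p = 0.00255), and Sstr3, a somatostatin receptor of neuronal cilia (-0.65, adjusted p = 0.00266). Crhr1, a receptor for corticotropin-releasing hormone that cerebellar neurons also make, was higher (0.78, adjusted p = 0.000878). Vipr2, named after its value was seen, was the other (0.51, adjusted p = 0.0441).

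Of 15 genes of peptide processing and dense-core vesicles, 7 were called lower and 2 higher, with a median of -0.35. Vgf, which encodes a granin-like vesicle protein and peptide precursor, fell by 1.08 on the log2 scale (adjusted p = 0.000353). Pcsk1n, an inhibitor of the convertase PC1, fell by 1.09 (adjusted p = 0.00223), and Pcsk2, the convertase PC2, by 0.46 (adjusted p = 0.00157). Cadps2, a vesicle priming factor abundant in cerebellar granule cells, rose by 0.55 (adjusted p = 0.00364), and Cadps, named after its value was seen, by 0.25 (adjusted p = 0.0363).

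Among 20 other brain neuropeptide genes, 15 were tested, and 8 were called lower and 0 higher, with a median of -0.84. The hypothalamic genes Oxt (oxytocin) and Hcrt (orexin) fell by 2.73 and 1.11 on the log2 scale (adjusted p = 0.000186 and 0.00254). Trh, the precursor of thyrotropin-releasing hormone, fell by 1.16 (adjusted p = 0.00305) and Tac2, the precursor of neurokinin B, by 0.84 (adjusted p = 0.00677). Oxt averaged 37.2 ± 6.50 CPM (SD, n = 4) with the digit 1 and 6.27 ± 3.49 CPM (SD, n = 6) with the digit 3.

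Marker lists of the cells that make these peptides are read against the same shares of all genes, 28.4% called and 14.4% called lower. The striatal and glutamatergic lists were called mainly lower, and the interneuron list was called in both directions. Of 14 striatal medium spiny neuron genes 12 were called lower and 0 higher, with a median of -0.38, led by Rgs9 (-0.45, adjusted p = 0.00509) and Ppp1r1b (-0.72, adjusted p = 0.00592). Of 14 cortical and hippocampal glutamatergic genes 9 were called lower and 1 higher, with a median of -0.49, and Emx1, a transcription factor of cortical excitatory neurons, fell by 1.25 (adjusted p = 0.00044). Of 20 forebrain interneuron genes 9 were called lower and 3 higher, with a median of -0.11, and by sign alone 11 were below 0 and 9 above. Dlx1, a transcription factor of these cells, was lower (-0.95, adjusted p = 0.000279). Pvalb (1.42, adjusted p = 0.000418) and Cnr1 (0.67, adjusted p = 0.000586), which are also abundant in the cerebellum, were higher. Prox1, which is on both the interneuron and the glutamatergic list and was named after its value was seen, rose by 0.47 (adjusted p = 0.0343). Of 20 cerebellar genes 18 were called higher and 0 lower, with a median of 1.72, and all 7 hindbrain genes tested were called higher.

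On the brain cell type and choroid plexus lists, 3 of 11 and 1 of 6 genes were called in either direction, near or below the 28.4% of all genes. Those called lower were 2 of 11 and 1 of 6, beside 14.4% of all genes. Of 11 genes of broad brain cell types 1 was called higher and 2 lower, the lower ones being the microglial genes Tmem119 (-0.90, adjusted p = 0.00109) and Cx3cr1 (-0.37, adjusted p = 0.00731), with Aqp4, a water channel of astrocytes, higher (0.55, adjusted p = 0.00854). Of 6 choroid plexus genes 1 was called, Ttr, which fell by 0.36 (adjusted p = 0.044).

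**Figure D3:**
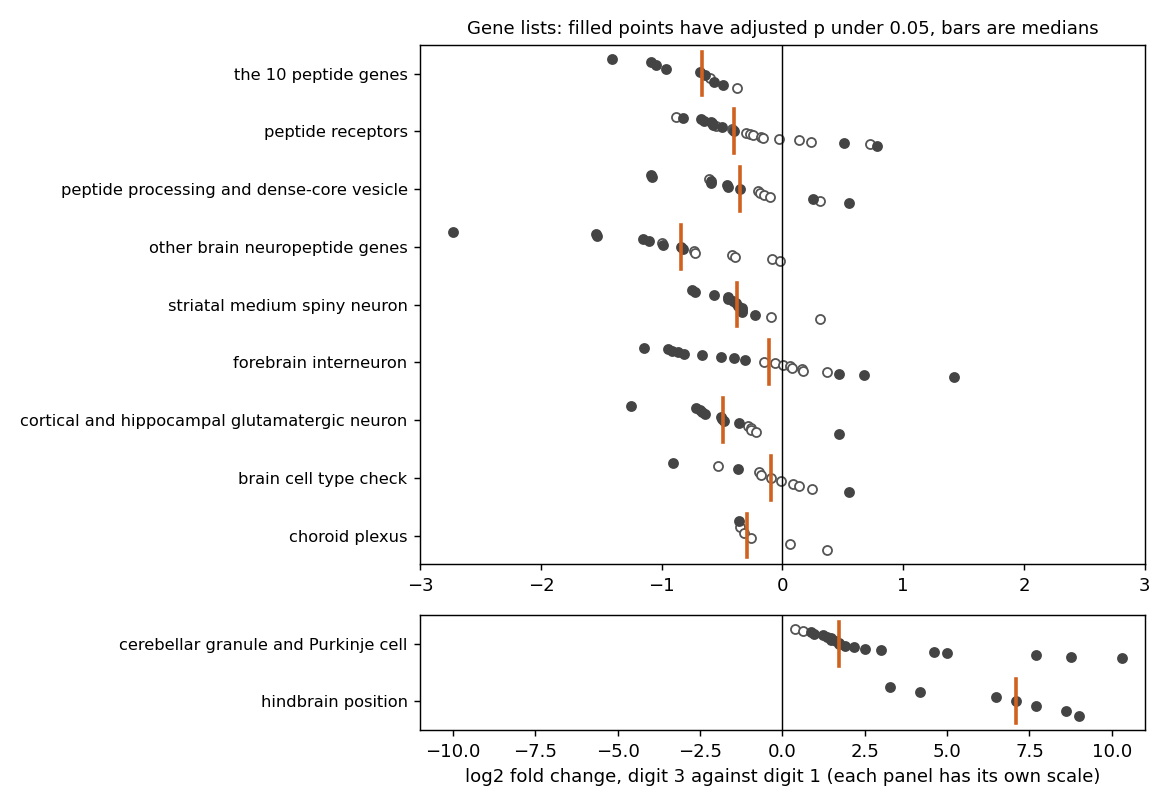
Log2 fold change of each tested gene on each list, digit 3 against digit 1, with filled points for genes at an adjusted p under 0.05 in edgeR and bars at the list medians; the lower panel has a wider scale. The 10 peptide genes lie left of 0 with a median of -0.66, and the cerebellar and hindbrain genes lie right of 0 with medians of 1.72 and 7.09.

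Treatment with FTY720 was compared with placebo among the 6 digit 3 libraries, 3 of each. No gene passed an adjusted p of 0.05 in edgeR (0% of 17656 genes, smallest adjusted p 0.654), and 1283, or 7.27%, had an unadjusted p under 0.05. DESeq2 called 5 genes at the adjusted threshold and limma-voom 0, none of them among the 10. Of the 10 peptide genes 1, Cck, had an unadjusted p under 0.05. The median log2 fold change was -0.24 for the 10 genes and -0.0049 for all genes, and 7 of the 10 were lower with FTY720.

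Cck was at 96.3 CPM in F3-609, 147 in F3-612 and 148 in F3-908, and at 232 in P3-612, 133 in P3-904 and 196 in P3-907. P3-904 lay below 2 of the FTY720 libraries, so the groups overlapped. The log2 fold change was -0.52 (SE 0.23), with p = 0.0487 before and 0.654 after adjustment in edgeR and 0.3 in the exact permutation test. Its unadjusted p was 0.174 without F3-609, 0.0563 without F3-612, 0.148 without P3-612 and 0.107 without P3-907, and it was 0.0491 without F3-908 and 0.0015 without P3-904.

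Sst, Npy and Penk had differences of the same sign that did not reach the threshold. Sst was at 86.8, 103 and 133 CPM in F3-609, F3-612 and F3-908, and at 191, 104 and 153 CPM in P3-612, P3-904 and P3-907, a log2 fold change of -0.47 (SE 0.23, edgeR p = 0.0717, exact permutation p = 0.2). Npy was at 23.7, 24.4 and 27.9 CPM with FTY720 and at 46.2, 23.0 and 35.2 CPM with placebo (-0.45, SE 0.23, edgeR p = 0.0805, exact permutation p = 0.4). Penk was at 139.6, 151 and 194 CPM with FTY720 and at 253, 164 and 198 CPM with placebo (-0.34, SE 0.18, edgeR p = 0.0959, exact permutation p = 0.2). In each of these genes P3-612 was the highest of the 6 libraries and P3-904 was close to the FTY720 libraries.

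For Vip, Tac1, Pdyn, Crh, Nts and Gal the fold changes were smaller beside their errors, and the groups overlapped here too. Vip was at 27.4, 24.7 and 33.3 CPM with FTY720 and 30.4, 22.6 and 28.1 CPM with placebo, a log2 fold change of 0.08 with a 95% interval from -0.24 to 0.40. Tac1 was at 49.8, 47.6 and 55.8 CPM with FTY720 and 60.2, 39.0 and 51.9 CPM with placebo (0.02, interval -0.30 to 0.35). Pdyn was at 27.6, 27.9 and 42.7 CPM against 43.0, 31.4 and 34.5 CPM (-0.15, interval -0.54 to 0.24). F3-908 was the highest FTY720 library for each of these 3 genes.
Crh was at 3.76, 4.25 and 6.87 CPM with FTY720 and 5.64, 3.87 and 7.69 CPM with placebo (-0.21, interval -0.81 to 0.40). Nts was at 8.88, 6.51 and 8.85 CPM against 9.45, 6.87 and 7.15 CPM (0.05, interval -0.34 to 0.45), and Gal at 2.44, 1.51 and 1.73 CPM against 3.56, 1.67 and 1.68 CPM (-0.27, interval -1.02 to 0.47). The digit difference of the same gene lay inside its interval for Crh and below it for Vip, Tac1, Pdyn, Nts and Gal. The digit differences have standard errors of their own. The two-sided exact permutation test, which cannot go below p = 0.1 with 3 libraries a group, gave 0.2 to 1 over the 10 genes.

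The sign of the treatment difference was not the same for both leading digits of the mouse number, and this was not tested. Among numbers beginning with 6, where F3-609 and F3-612 were set against P3-612 alone, all 10 genes were lower with FTY720, by a median of -0.71 in mean log2 CPM. Among numbers beginning with 9, where F3-908 was set against P3-904 and P3-907, 2 of 10 were lower and the median was 0.21. With the leading digit as a covariate, 0 of the 10 genes and 738 of all 17656 genes had an unadjusted p under 0.05, and Cck was at -0.54. Without P3-612 the median of the 10 genes was -0.07, and without P3-904 it was -0.44. Without P3-904, 4 genes (Sst, Npy, Cck and Penk) had an unadjusted p under 0.05, beside 3896 of all 17952 genes.

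Over all 10 libraries, 6 with FTY720 and 4 with placebo, as the labels group them, none of the 10 peptide genes had an unadjusted p under 0.05, against 2.61% of all genes tested. No gene passed the adjusted threshold (0% of 17665) in edgeR, and DESeq2 and limma-voom called 0 as well, with 550 and 475 genes at an unadjusted p under 0.05 beside 461 in edgeR. Log2 fold changes of the 10 ran from -0.22 for Crh to 0.28 for Gal, with standard errors of 0.20 to 0.52. In this comparison 3 of 6 FTY720 libraries and 1 of 4 placebo libraries had the digit 1. With the digit as a covariate the median of the 10 genes went from 0.05 to -0.22, and Cck from 0.01 to -0.35, still not past an unadjusted 0.05. The comparison shares its digit 3 libraries with the one above, so the values are not independent.

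Whether the treatment difference was the same in both digits could not be judged, since P1-623 alone stood for placebo with the digit 1 and its spread was taken from the other groups. In a fit with 4 groups, the interaction had an unadjusted p under 0.05 for 1.95% of all genes and an adjusted one for 0%, with 345 and 0 genes, and for 0 of the 10. For Cck, the member with the smallest p, the difference was -0.51 (95% interval -1.30 to 0.28).

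The lists are given by their genes at an unadjusted p under 0.05 within the digit 3, beside 7.27% of all genes. Among 23 peptide receptors 1 passed, Vipr2, a receptor for vasoactive intestinal peptide (0.50, higher with FTY720). Among 15 processing genes 3 passed, all lower: Vgf (-0.56), Pcsk1n (-0.64) and Chga, chromogranin A (-0.43). Among 15 other neuropeptide genes Pomc, the precursor of melanocortins and beta-endorphin, passed (-1.21). The striatal list had 1 gene, Adora2a (-0.50), an adenosine receptor of the indirect pathway. The interneuron list had 2, Slc32a1, the vesicular GABA transporter (-0.31), and Dlx2, a transcription factor (-0.77), and the glutamatergic list 2, Emx1 (-0.68) and Nrn1 (-0.29). Each of these had an adjusted p of 0.654 in edgeR. Of 11 brain cell type genes 4 passed, in both directions: Tmem119 of microglia (-0.80), Mbp of oligodendrocytes (-0.38) and Rbfox3 of neurons (-0.28) were lower, and Pecam1 of endothelium (0.56) was higher, also at an adjusted p of 0.654. Cx3cr1, another microglial gene, was at 42.04 CPM with FTY720 and 42.5 CPM with placebo on average. Of 6 choroid plexus genes 0 passed. Of the cerebellar genes 3 of 20 were higher at this threshold, of the hindbrain genes 2 of 8 were lower, and the summed cerebellar level was 3027 to 3466 CPM with FTY720 and 2801 to 3088 CPM with placebo. The summed striatal level was 1285 to 1450 CPM with FTY720 and 1486 to 1599 CPM with placebo. The cerebellar ranges overlapped. The striatal ranges did not, and neither did those of the summed peptide receptor level, at 329 to 349 CPM with FTY720 and 360 to 372 CPM with placebo. The summed levels of the remaining lists overlapped. Among single genes, 12.9% did not overlap in this comparison, and no such share was computed for sums over lists. The part of these lists in the peptide values was not tested.

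Within a digit the 10 genes tended to be high or low in the same libraries. Among the digit 1 libraries F1-622 was the highest for 9 of the 10 genes and F1-624 the lowest for 9. P1-623 was the highest for Crh, and F1-918 the lowest for Vip. Among the digit 3 libraries P3-612 was the highest for 8 genes and above the digit mean for all 10, F3-609 was the lowest for 5, P3-904 for 3 and F3-612 for 2. On average over the 10 genes, the deviation from the digit mean was 0.43 in log2 CPM in P3-612, 0.14 in P3-907, 0.12 in F3-908, -0.22 in F3-609, -0.23 in F3-612 and -0.25 in P3-904. With the digit 1 it was 0.39 in F1-622, 0.09 in P1-623, -0.11 in F1-918 and -0.37 in F1-624.

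A trend on gene length across all genes moved with this pattern. Most of the 10 genes are short, 566 bases of exon for Npy, 712 for Gal and 721 for Sst, and 7 of the 10 were at or under the lower quartile of 2341 bases. The mean deviation of all tested genes at or under that quartile minus that of genes at or over the upper quartile of 6248 bases was 0.40 in P3-612, 0.13 in P3-907, 0.09 in F3-908, -0.21 in F3-609, -0.20 in F3-612 and -0.21 in P3-904. In the digit 1 libraries it was 0.15 in F1-622, 0.17 in P1-623, -0.09 in F1-918 and -0.23 in F1-624. The sign was that of the peptide deviation in 10 of 10 libraries.
When trends on length and GC content were removed from each library, a setting added after the data were seen, 9 of the 10 genes and 4685 of all 17647 genes were called between the digits, with a median of -0.72 over the 10, and Tac1 joined the calls (adjusted p = 0.0272). Within the digit 3, the same removal left 0 of the 10 genes and 840 of all 17638 genes at an unadjusted p under 0.05 for FTY720, with a median of -0.09 over the 10 and Cck at -0.22. What gave rise to the trend was not tested.

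**Figure D4:**
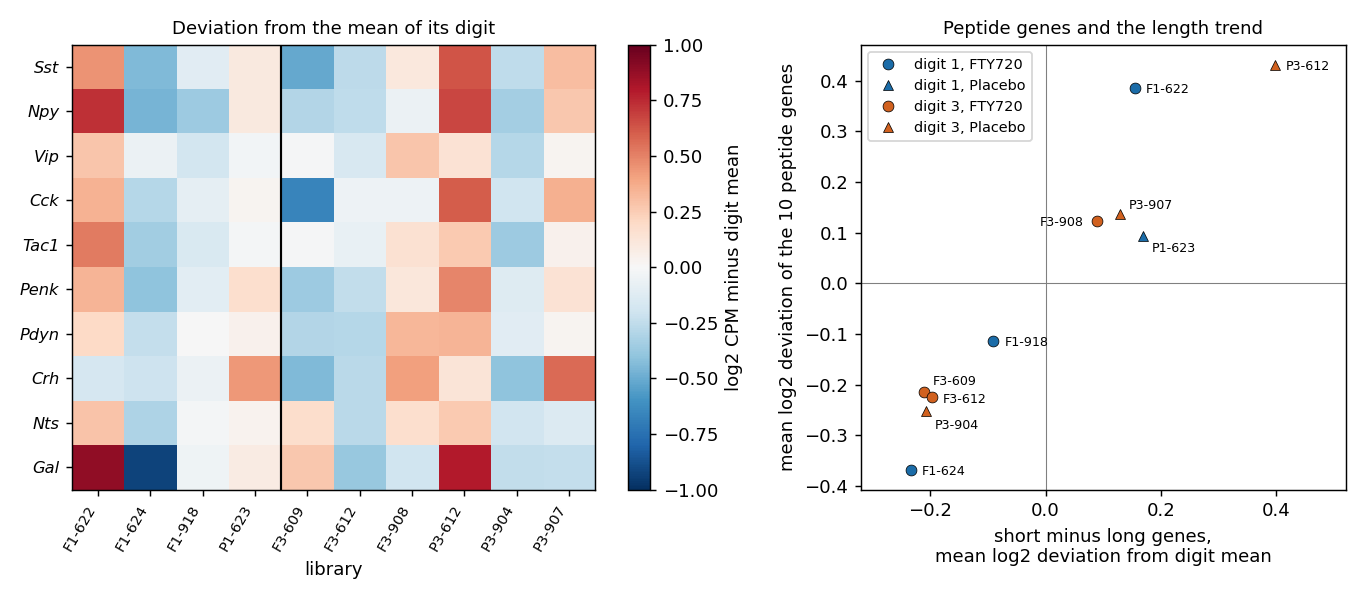
Left, log2 CPM of each peptide gene minus the mean of the libraries with the same digit, by library. Right, the mean of that deviation over the 10 genes against the mean deviation of the short genes (lower quartile of length) minus that of the long genes (upper quartile). P3-612 (0.40 and 0.43) is at the upper right, F1-624 (-0.23 and -0.37) at the lower left, and both quantities have the same sign in 10 of 10 libraries.

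Ratios between 2 peptide genes of the same library were taken to compare transcript levels within a sample. In tissue RNA the cells and regions that gave each transcript are not known. Cell number and RNA per cell cannot be told apart in these ratios either. Penk to Tac1, the peptides of the indirect and direct striatal pathways, gave a ratio of CPM of 3.63 in F1-622, 3.97 in F1-624, 4.25 in F1-918 and 4.68 in P1-623. With the digit 3 the ratio was 2.80, 3.17 and 3.48 in F3-609, F3-612 and F3-908, and 4.19, 4.20 and 3.81 in P3-612, P3-904 and P3-907. With the digit 3 every FTY720 library was below every placebo library, and 12.9% of single genes did not overlap in this comparison. With the digit 1 placebo was 1 library. Within the digit 3 the FTY720 ratio was 0.772 times that of placebo, with an exact permutation p of 0.1, the smallest that 3 against 3 allows, and 0.333 after adjustment over the 5 ratios computed. The digit difference of this ratio gave an exact permutation p of 0.167.
Penk and Tac1 also differ in GC content, at 55.2% and 46.1% against quartiles of 46.0% and 55.0% over all tested genes. Their lengths differ too, at 1634 and 3399 bases. The ratio moved with a GC trend of the libraries. The mean deviation of genes at or over the upper GC quartile minus that of genes at or under the lower one was -0.40 in F3-609, -0.11 in F3-612, 0.01 in F3-908, 0.24 in P3-907 and 0.31 in P3-612, in the order of their ratios, and -0.05 in P3-904, which had the highest ratio. In F1-622, F1-624, F1-918 and P1-623 it was -0.16, -0.16, 0.10 and 0.22, also in the order of the ratios. The length trend given above put the digit 3 libraries in the same order, again apart from P3-904. That trend did not follow the order of the ratios in the digit 1 libraries. Both trends were removed together, so their parts were not separated. With GC and length trends removed, the log2 fold change of FTY720 against placebo within the digit 3 was -0.14 for Penk and -0.05 for Tac1, beside -0.34 and 0.02 without removal.

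**Figure D5:**
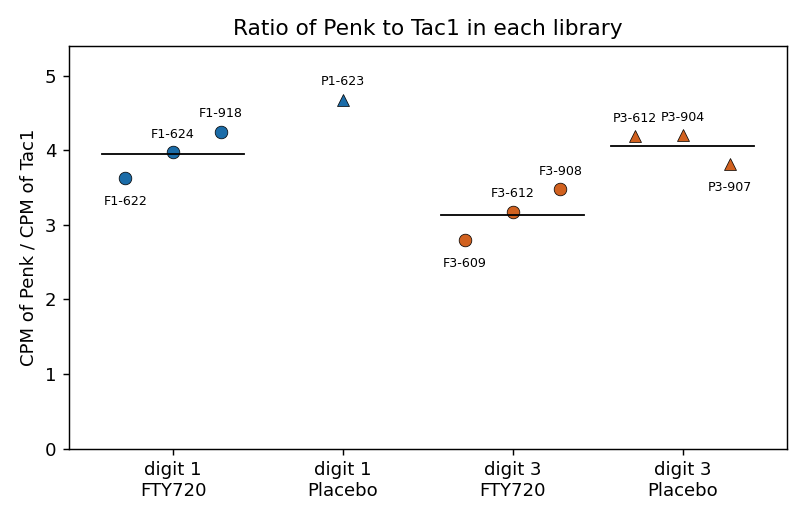
CPM of Penk divided by CPM of Tac1 in each library, by digit and treatment, with bars at geometric means. The 3 FTY720 libraries with the digit 3 lie between 2.80 and 3.48 and the 3 placebo libraries between 3.81 and 4.20.

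The other ratios overlapped between groups in both comparisons. Pdyn to Tac1 was 0.672 to 0.927 with the digit 1 and 0.555 to 0.807 with the digit 3 (exact permutation p = 0.0571, adjusted 0.286). Pdyn to Penk was 0.185 to 0.228 against 0.170 to 0.220, and Npy to Sst 0.203 to 0.295 against 0.210 to 0.275, with exact permutation p-values of 0.290 and 0.686. Cort, a relative of Sst made by a subset of cortical interneurons, gave a ratio to Sst of 0.00428 to 0.0275 with the digit 1. With the digit 3 this ratio was 0.00893 to 0.0146, a narrower range. Cort rests on few reads, 17 to 76 counts with the digit 1 and 11 to 45 with the digit 3, so these ranges are imprecise. The mean ratio of Npy to Sst with the digit 3 was 0.970 times that with the digit 1, beside lower levels of both genes.

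Over the 10 libraries, Pearson correlations of log2 CPM between pairs of the 10 genes ran from 0.483 for Crh and Gal to 0.987 for Sst and Penk. These describe 10 points that share library, depth and digit. Among 14783 other protein-coding genes, the closest to Sst were Saraf (0.996), Aldoa (0.995) and Cst3 (0.994), and to Npy Tpm1 (0.993), Gap43 and Stmn4 (both 0.989). Cck was closest to Anapc2, Rangap1 (both 0.990) and Arhgef25 (0.989), Penk to Brk1, Uqcrc1 (both 0.989) and Cst3 (0.988), and Tac1 to Tmsb4x (0.991), Tmem9b (0.985) and Eif3m (0.981). For Vip they were Ddx24 (0.984), Lmo4 (0.980) and Stk25 (0.978), and for Pdyn Fam110b (0.978), Wdr1 and Pja1 (both 0.975).
Crh was closest to Carhsp1 (0.957), Casz1 (0.956) and Slc9a3r1 (0.951), Nts to Mpi (0.977), Tprgl (0.968) and Pgrmc1 (0.962), and Gal to Tac2 (0.969), Ctgf (0.953) and Babam2 (0.952). Of these 29 distinct genes, Tac2 was the only other neuropeptide gene, and 10 were at or under the lower quartile of gene length.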

How the data were processed

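Each library was 1 mouse brain sample, so p-values reflect the spread between these libraries, which need not come from the mice alone. The labels do not explain why mouse number 612 is in 1 FTY720 and 1 placebo title. NEBNext Ultra RNA libraries were sequenced, and the submitters' processing notes name CASAVA 1.8, fastp, HISAT2 2.0.5, featureCounts 1.5.0-p3, DESeq2 1.20.0 and the build GRCm38 (mm10). The strand setting of the counting and the annotation release were not given in the sources used here. The authors deposited whole-number counts per gene, without normalization. The authors also deposited FPKM values, which were these counts divided by gene length and by a library total at 0.96 to 1.05 of the column sum. All count and FPKM columns were mapped to a sample by title, and the column of gene length belongs to no sample.

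From the counts, genes kept by filterByExpr entered TMM scaling and the quasi-likelihood test of edgeR 4.0.16 (R 4.3.3), fitted over all genes, with Benjamini-Hochberg adjustment and a threshold of 0.05. Log2 CPM values for ratios, deviations and exact permutation tests had a prior count of 2, and 95% intervals of log2 fold changes were taken from the standard error under a normal approximation, without adjustment. The comparisons were digit 3 against digit 1 with treatment as a covariate, FTY720 against placebo within the digit 3 and over all libraries, and their interaction. Alternatives were other scalings and filters, DESeq2 1.42.0, limma-voom (limma 3.58.1), limma on log2(FPKM + 0.1) and log2(FPKM + 1), further covariates, leaving out each library, and removal of GC and length trends, the last chosen after seeing the data. The fits were tested on simulated data. Tables were handled with pandas 2.3.3 and numpy 2.4.6. All 10 peptide genes were named in every comparison, with up to 4 genes of smallest p from each list and the 3 genes closest to each member. The members and lists were chosen with earlier results of these data known. A result for 1 listed gene is not reported here.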

Additional observations from a re-analysis of the deposited data

Results flagged for a closer look

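Tac1 in F1-622 stood apart from the other FTY720 libraries. It was at a log2 CPM of 6.53 (92.5 CPM), and its gap to the nearest of the 6 libraries was 0.704 of their whole range, above the critical value of Dixon's test of 0.625. Of 60 groups of values of the peptide genes checked this was the 1 to pass, and chance gives about 1 in 20 groups. F1-622 was also the highest digit 1 library for 9 of the 10 peptide genes.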

How the results depend on the processing

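Between the digits, all 10 peptide genes kept their negative sign in every setting, with 7 to 10 called (10 without a filter on low counts, beside 5577 of all 36165 genes, 9 with DESeq2, beside 5716 of 17665, and 9 with limma-voom, beside 4934 of 17665). Sst, Npy, Vip, Cck, Penk, Pdyn and Gal kept their calls throughout. Nts lost its call in 9 settings, among them FTY720 libraries only (adjusted p = 0.135) and the leading digit of the mouse number as a covariate (0.0642). Genes called fell from 5010 to 3106 with FTY720 libraries only and were 2593 (without P1-623) to 6000 when 1 library was left out. With 1 library left out, the log2 ratio of Npy to Sst was -0.13 to 0.050 and that of Cort to Sst -0.22 to 0.68.
Within the digit 3, FTY720 against placebo gave 2340 genes at an unadjusted p under 0.05 without a filter, 738 with the leading digit as a covariate, 840 with GC and length trends removed, and 388 to 3896 with 1 library left out. Peptide genes at that p numbered 2 with DESeq2, beside 1245 of all 17656 genes, and 4 without a filter, beside 2340 of 34281. They numbered 0 with limma-voom (beside 1221 of all 17656 genes), both FPKM fits (1185 and 1202), the leading digit or trends removed. With 1 library left out they numbered 0 to 4. Unfiltered counts put 134 genes past the adjusted threshold, 0 of them peptide genes. Signs turned for Tac1 with the leading digit (-0.0057) and with trends removed for Vip (-0.080), Tac1 (-0.046) and Nts (-0.036). With 1 library left out the ranges were -0.048 to 0.18 for Vip, -0.13 to 0.18 for Tac1, -0.38 to 0.0032 for Pdyn, -0.51 to 0.062 for Crh, -0.034 to 0.22 for Nts and -0.50 to 0.19 for Gal.
Over all libraries, genes at an unadjusted p under 0.05 numbered 1117 without a filter, 2256 with the digit as a covariate and 281 to 984 with 1 library left out, and peptide genes 0 throughout. Cck turned to -0.0007 with upper-quartile scaling, -0.077 with limma-voom, -0.069 and -0.068 in the FPKM fits, -0.0019 with the leading digit and -0.35 with the digit. Npy turned to -0.068 with limma-voom, -0.056 and -0.055 in the FPKM fits, -0.018 with the leading digit and -0.31 with the digit. The digit also turned Pdyn (-0.12) and Gal (-0.15), and trends removed turned Sst (0.13) and Penk (0.028). With 1 library left out the ranges were -0.29 to 0.17 for Sst, -0.35 to 0.26 for Npy, -0.22 to 0.24 for Cck, -0.029 to 0.23 for Tac1, -0.28 to 0.048 for Penk, -0.049 to 0.26 for Pdyn, -0.41 to 0.044 for Crh and -0.21 to 0.68 for Gal. The causes of these changes were not tested.
No paired analysis was possible because the groups share 1 mouse number only, 612. At 26 to 130 counts per library, Gal was the least precisely measured of the 10 genes.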
